A study of Homo sapiens with 2 samples.

Results

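The genes described are 9 genes of extracellular proteolysis: the matrix metalloproteases MMP1, MMP2, MMP9 and MMP14, their inhibitors TIMP1 and TIMP2, the plasminogen activators PLAU and PLAT, and the urokinase receptor PLAUR. They were chosen by name, as the proteases, receptor and inhibitors used by invading cells, and all 9 were found among the 58174 Ensembl genes of the deposited table. RNA sequencing was done on PC3, a human cell line from a bone metastasis of prostate cancer. The cells of one library had been transfected with a control siRNA, and those of the other with an siRNA that targets POH1. POH1, gene symbol PSMD14, is the deubiquitinase of the proteasome lid. The labels give neither the siRNA sequence nor the time after transfection, and no allele or further agent is named for either group. There was 1 library per group, so no value has a replicate error, no test between the groups was possible, and each difference is between these 2 libraries.

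Metalloproteases of this family are made as inactive precursors and cut collagen, gelatin and other matrix proteins once a propeptide is removed. TIMP proteins block them by inserting an amino-terminal ridge into the active site. Plasminogen activators convert plasminogen to plasmin, a broad protease, and a cell concentrates this reaction at its surface by binding urokinase to its receptor. The systems are linked, because plasmin can activate several metalloprotease precursors. PC3 is widely used as an invasive line and is known for high urokinase production.

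To show the parts of these proteins that meet each other, the coding sequence of the zinc-binding site is printed for the 4 metalloproteases and for MMP17, which enters the comparison further on. Capitals mark the codons of the 3 histidines that hold the catalytic zinc. Sequences are of GENCODE release 29 reference transcripts (GRCh38), each 33 bases within 1 coding exon and read 5′ to 3′ on the strand of the gene.
MMP1, exon 5, chr11:102795549-102795581, minus strand: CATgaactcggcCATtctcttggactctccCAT
MMP2, exon 8, chr16:55491827-55491859, plus strand: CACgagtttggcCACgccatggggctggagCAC
MMP9, exon 8, chr20:46012453-46012485, plus strand: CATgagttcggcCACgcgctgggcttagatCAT
MMP14, exon 5, chr14:22843283-22843315, plus strand: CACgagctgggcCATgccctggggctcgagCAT
MMP17, exon 5, chr12:131841659-131841691, plus strand: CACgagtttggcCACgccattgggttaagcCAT
MMP2 and MMP14 were identical at 27 of the 33 bases (81.8%), and MMP1 and MMP2, the least alike of the 10 pairs, at 18 (54.5%).

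The inhibitors are shown by the start of the ridge that enters that site, 39 bases within 1 coding exon of each gene. Capitals mark the cysteine codons, of which the first encodes the residue that lies against the zinc.
TIMP1, exon 2, chrX:47583485-47583523, plus strand: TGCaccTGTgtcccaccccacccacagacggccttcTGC
TIMP2, exon 1, chr17:78924972-78925010, minus strand: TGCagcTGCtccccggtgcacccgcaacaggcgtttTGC
These stretches were identical at 25 of 39 bases (64.1%). TIMP2 is the 1 member that was counted as different between the libraries.

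Levels are in TPM, a transcript abundance that divides reads by transcript length and so lets genes be set side by side. The number of reads cannot be had from it, so the depth is unknown and counting intervals are not given. The values added up to 999955 TPM for control siRNA and 999968 TPM for POH1 siRNA. The targeted gene, PSMD14, was at 50.9 TPM with control siRNA and 35.1 TPM with POH1 siRNA, or 69.0% of the control. Its log2 difference of -0.52 lay within the 1.5-fold used below, 10.7% of the genes averaging at least 1 TPM were as low or lower, and after adjustment for GC content it was -0.24. The epithelial markers KRT8, KRT18, KRT19, EPCAM and CDH1 summed to 2706 and 3016 TPM. KLK2 and KLK3, secreted products of the normal prostate gland, were listed at 0 in both libraries. Of 6 fibroblast markers 1 had a mean of 1 TPM or more (COL1A1; sums of 31.5 and 48.0 TPM), as did 1 of 4 endothelial markers, PECAM1 (sums of 6.60 and 5.11 TPM). Of 5 leukocyte and macrophage markers 3 did so (sums of 47.0 and 71.9 TPM, nearly all of it CD68), while PTPRC, the defining leukocyte gene, was listed at 0 and 0.0568 TPM. The part of other cells in the results was not tested.

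The difference of a gene is log2(TPM + 1) in the POH1 siRNA library less that in the control library. The added 1 shrinks the difference of weakly expressed genes, and folds are given as ratios of TPM. Genes averaging at least 1 TPM over both libraries were counted as higher or lower from a log2 difference of 0.585, which is 1.5-fold. Of the 9 members 7 passed this filter, and MMP1 and MMP2 did not. Of the 7, 1 was lower, TIMP2, none was higher and 6 lay within 1.5-fold. Of all 15008 genes that passed the filter, 19.1% were counted in either direction, 10.2% higher and 8.88% lower, so the members' share of 1 in 7 (14.3%) was near that background. The median log2 difference of the 7 members was 0.21 and that of all genes that passed the filter 0.12; medians and shares of all genes below are over these. Scaling the libraries to a median ratio of 1 took the median of all genes to about 0 and that of the members to 0.07. After adjustment for GC content the order was reversed, with a median of 0.12 for the members and 0.15 for all genes.

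TIMP2 (ENSG00000035862, chromosome 17) encodes the inhibitor that binds MMP14 at the cell surface, where the complex serves as the docking site for the MMP2 precursor. It was at 119.9 TPM with control siRNA and 49.4 TPM with POH1 siRNA. The level in the POH1 siRNA library was thus 41.2% of the control, 2.43-fold lower, with a log2 difference of -1.26. Among all genes that passed the filter, 1.5% had a difference as low or lower. Across changes of pseudocount, scaling and adjustment for GC content, the difference stayed between -1.40 and -1.20. TIMP2 shares same-strand exon sequence with CEP295NL, which was at 0.383 and 0.273 TPM, and the log2 difference of their sum was -1.26. In RNA from a whole culture, fewer cells that make a transcript and less of it per cell cannot be told apart. Genes on the opposite strand of TIMP2 were each listed at under 1 TPM in both libraries.

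TIMP1 (ENSG00000102265, X chromosome) encodes a secreted inhibitor of most soluble metalloproteases and a weak one of MMP14. It was the second most abundant member, at 1391 TPM with control siRNA and 1535 TPM with POH1 siRNA. The log2 difference was 0.14, close to the median of all genes. TIMP1 and TIMP2 were therefore unlike each other in both level and difference: the ratio of TIMP1 to TIMP2 was 11.6 in the control library and 31.1 in the POH1 siRNA library. Of the other inhibitors, TIMP3 was listed at 0 in both libraries and TIMP4 was at 2.70 and 2.79 TPM. TIMP2 made up 7.92% of the TPM of the 4 TIMP genes in the control library and 3.11% in the POH1 siRNA library.

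MMP14 (ENSG00000157227, chromosome 14) encodes MT1-MMP, a membrane-anchored collagenase that also starts the activation of the MMP2 precursor. It was at 161 TPM with control siRNA and 218 TPM with POH1 siRNA, 1.35-fold higher, with a log2 difference of 0.43 that lay within 1.5-fold. Because MMP14 and TIMP2 differed in opposite directions, the ratio of TIMP2 to MMP14 was 0.745 in the control library and 0.227 in the POH1 siRNA library. The POH1 siRNA library thus had a 3.29-fold lower ratio. The ratio of TIMP1 to MMP14 moved less, from 8.64 to 7.04. A ratio within a library does not depend on how the libraries are scaled to each other, but it has no replicate check either.

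MMP9 (ENSG00000100985, chromosome 20) encodes gelatinase B, which degrades denatured collagen and the type IV collagen of basement membranes. It was low, at 5.46 TPM with control siRNA and 6.98 TPM with POH1 siRNA (log2 difference 0.30). MMP9 overlaps exons of SLC12A5-AS1 on the opposite strand, itself at 3.18 and 3.65 TPM. Whether reads were assigned by strand is not given in the sources used here, so these genes' reads may not be told apart. The same holds for other genes named below, among them BSG, PCSK7, PRSS8, ADAM19, CTSD and JUNB, which also overlap exons of a gene on the opposite strand.

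MMP1 (ENSG00000196611, chromosome 11), the interstitial collagenase, was at 1.20 TPM with control siRNA and 0.613 TPM with POH1 siRNA. Its mean was just under the filter. MMP2 (ENSG00000087245, chromosome 16), gelatinase A, was at 0.0293 and 0.0147 TPM, the lowest of the members. Both values of MMP2 were far below 1 TPM, so the table held next to no transcript of the enzyme whose precursor MMP14 and TIMP2 handle together. The TPM ratio was close to 2-fold lower for each, but at these levels and without a depth no weight can be put on it: the log2 differences with a pseudocount of 1 were -0.45 and -0.02.

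PLAU (ENSG00000122861, chromosome 10) encodes urokinase, the activator of plasminogen that acts at cell surfaces. It was by far the most abundant member, at 3351 TPM with control siRNA and 4297 TPM with POH1 siRNA. By level it was rank 33 in the whole table for the control library and rank 20 in the POH1 siRNA library. The fold was 1.28 and the log2 difference 0.36, and 25.3% of the genes that passed the filter had a difference as high or higher. PLAU overlaps exons of C10orf55 on the opposite strand, at 13.9 and 24.3 TPM, and the log2 difference of their sum was also 0.36. The coding sequence around the active-site serine of urokinase is printed as the part that cuts plasminogen. It is 42 bases long, spans a splice junction, and has the serine codon in capitals.
PLAU: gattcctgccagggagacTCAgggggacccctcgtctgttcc

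PLAT (ENSG00000104368, chromosome 8) encodes tissue plasminogen activator, which is best known for dissolving fibrin clots. It was at 184 TPM with control siRNA and 165 TPM with POH1 siRNA, with a log2 difference of -0.16. PLAU and PLAT thus differed in opposite directions, both within 1.5-fold, and the ratio of PLAU to PLAT was 18.2 and 26.03. PLAUR (ENSG00000011422, chromosome 19) encodes the membrane-tethered receptor that holds urokinase at the cell surface. It was at 132 and 153 TPM (log2 difference 0.21). The ratio of PLAU to PLAUR transcripts was 25.4 in the control library and 28.1 in the POH1 siRNA library, so ligand messages outnumbered receptor messages in both.

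**Figure D1:**
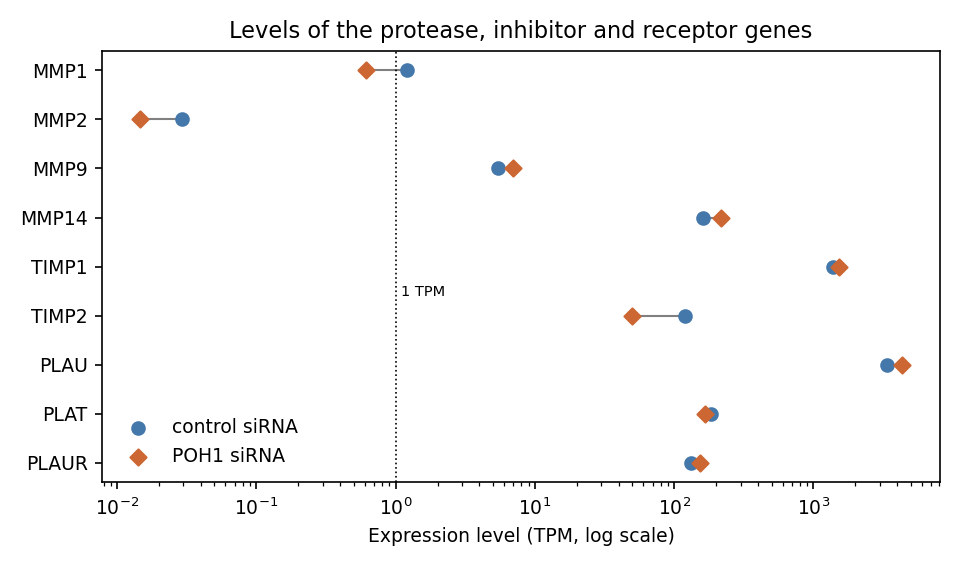
Expression level of each member in TPM on a log axis, with 1 point for the control siRNA library (circle) and 1 for the POH1 siRNA library (diamond), joined by a line; the dotted line is 1 TPM. TIMP2 shows the widest gap among members above 1 TPM (119.9 and 49.4 TPM), while MMP1 and MMP2 lie near or below 1 TPM.

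The order of the levels in the control library was PLAU, TIMP1, PLAT, MMP14, PLAUR, TIMP2, MMP9, MMP1 and MMP2. In the POH1 siRNA library MMP14 stood above PLAT, and the other places were the same. From PLAT to TIMP2 the control levels ran only from 184 to 119.9 TPM, and without replicates neighbours in that range cannot be ordered with confidence. PLAU and TIMP1 together made up 88.7% of the TPM of the 9 members in the control library and 90.8% in the POH1 siRNA library. The plot of difference against level shows TIMP2 below the 1.5-fold line and the remaining 6 members between the lines.

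**Figure D2:**
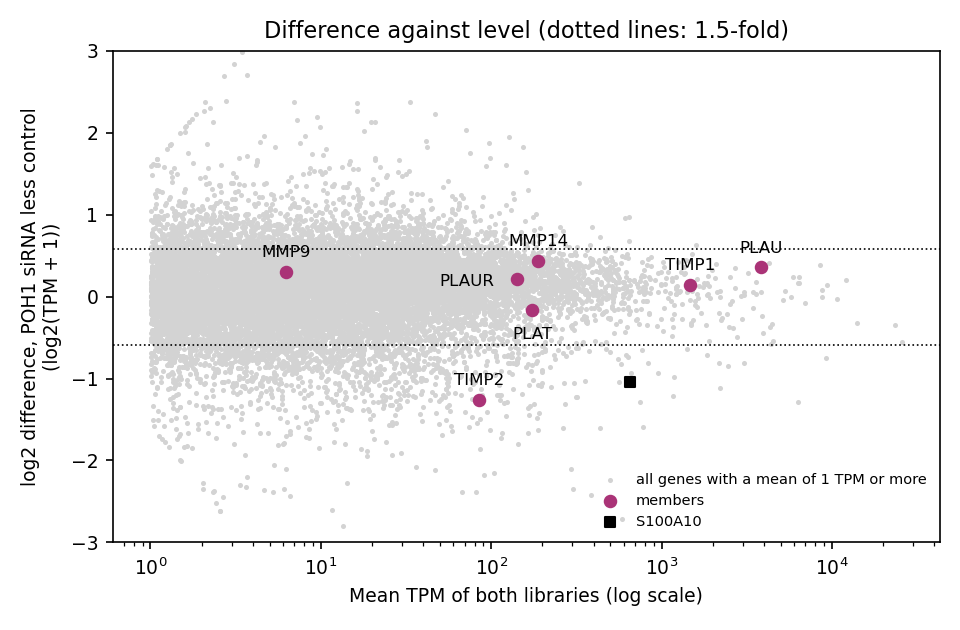
Log2 difference between the libraries (vertical axis, log2(TPM + 1), POH1 siRNA less control) against the mean TPM of both (horizontal axis, log scale) for the 15008 genes that averaged at least 1 TPM (grey), the 7 members among them (purple) and S100A10 (black square). Dotted lines mark 1.5-fold, 19 genes lie outside the vertical range of 3 either way, and TIMP2 (-1.26) and S100A10 (-1.05) lie below the lower line.

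The other genes of extracellular proteolysis were read from 8 lists with 123 genes in all, of which 89 passed the filter. Of these 89 genes, 10 were counted higher, 4 were counted lower and 75 stayed within 1.5-fold. The share counted, 15.7%, was below the 19.1% of all genes. The median log2 difference was 0.25, against 0.12 for all genes. After adjustment for GC content these medians were closer, at 0.20 and 0.15. With scaling to a median ratio of 1, 5 were higher and 6 lower, so the surplus of higher genes depends on the scaling.

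Among the 19 other metalloproteases, 7 passed the filter, with 2 higher, 1 lower and a median log2 difference of 0.07. MMP17, a membrane-type metalloprotease held by a lipid anchor, was 1.81-fold higher (44.2 against 80.1 TPM; log2 difference 0.84). With MMP14 it gave most of the metalloprotease transcripts: MMP14 made up 65.4% of the TPM of all 23 listed metalloproteases in the control library and 63.1% in the POH1 siRNA library, and MMP17 18.0% and 23.2%. MMP1, MMP2 and MMP9 together made up 2.72% and 2.20%. MMP11, also called stromelysin 3, was at 2.45 and 5.62 TPM, but it overlaps CHCHD10 on the opposite strand, itself at 96.7 and 140.3 TPM. MMP19 was the lower one (1.90 and 0.887 TPM), and it overlaps TMEM198B on the opposite strand, itself at 15.04 and 28.4 TPM.

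MMP25 was at 1.55 and 1.09 TPM and overlaps exons of MMP25-AS1 on the opposite strand (5.88 and 10.01 TPM). MMP23B, which has a near-identical pseudogene copy, was at 13.6 and 14.4 TPM and overlaps exons of CDK11B on the opposite strand (110.8 and 117.8 TPM). The soluble enzymes often studied in carcinoma were low: MMP7, or matrilysin, was at 0.406 TPM with control siRNA and listed at 0 with POH1 siRNA. MMP10 was at 0.143 and 0.348 TPM and MMP13 at 0.604 and 0.774 TPM. Of the 12 metalloproteases in this list under the filter, 6 were listed at 0 in both libraries.

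None of the 5 measured genes among further metalloprotease inhibitors and activators passed 1.5-fold (median 0.30). FURIN, the convertase that removes the propeptide of MMP14, was at 49.2 and 70.3 TPM (log2 difference 0.51), and PCSK7, a related convertase, at 34.3 and 46.5 TPM. BSG, or EMMPRIN, a surface protein that induces metalloproteases in neighbouring cells, was at 385 and 473 TPM. RECK, a membrane-anchored inhibitor, was at 3.52 and 2.95 TPM.

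In the list of plasminogen, its receptors and inhibitors, 12 of 18 genes passed the filter, 1 of them higher, 1 lower and 10 within 1.5-fold (median 0.26). The lower one was S100A10, which pairs with annexin A2 to form a plasminogen receptor on the cell surface. S100A10 was at 886 TPM with control siRNA and 428 TPM with POH1 siRNA, 2.07-fold lower (log2 difference -1.05), and 2.57% of the genes that passed the filter had a difference as low or lower. Its partner ANXA2 was at 3391 and 3826 TPM, so the ratio of ANXA2 to S100A10 was 3.83 in the control library and 8.94 in the POH1 siRNA library. TIMP2 and S100A10 were thus the lowest among the members and the pathway genes. Of the partner transcripts, MMP14 had a log2 difference of 0.43. That of ANXA2 was 0.17, close to the median of all genes (0.12). After adjustment for GC content, the log2 differences of TIMP2 and S100A10 were -1.22 and -1.01.

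The higher gene of this list was LRP1, the endocytic receptor that clears urokinase bound to its inhibitor, at 25.9 and 45.2 TPM; STAT6, on the opposite strand, was at 71.5 and 117.8 TPM. MRC2, which encodes a collagen receptor associated with the urokinase receptor, was at 20.98 and 31.3 TPM. ENO1, which encodes the glycolytic enzyme enolase that also binds plasminogen at the surface, was at 2388 and 3035 TPM. Plasminogen itself, PLG, was listed at 0 in both libraries.

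Of the inhibitors of the activators, SERPINB2 was at 72.0 TPM with control siRNA and 93.9 TPM with POH1 siRNA (log2 difference 0.38, against 0.36 for PLAU). SERPINE2, which encodes protease nexin 1, was at 25.4 and 31.1 TPM (log2 difference 0.28). The ratio of PLAU to SERPINB2 was 46.6 in the control library and 45.8 in the POH1 siRNA library. After adjustment for GC content, the log2 difference was 0.63 for SERPINB2, past 1.5-fold, and 0.32 for PLAU. SERPINF2, which encodes the plasmin inhibitor antiplasmin, was at 4.54 and 2.93 TPM (log2 difference -0.50). After adjustment for GC content SERPINF2 was at -0.66, past 1.5-fold. The plasminogen list then had 2 genes higher and 2 lower.

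**Figure D3:**
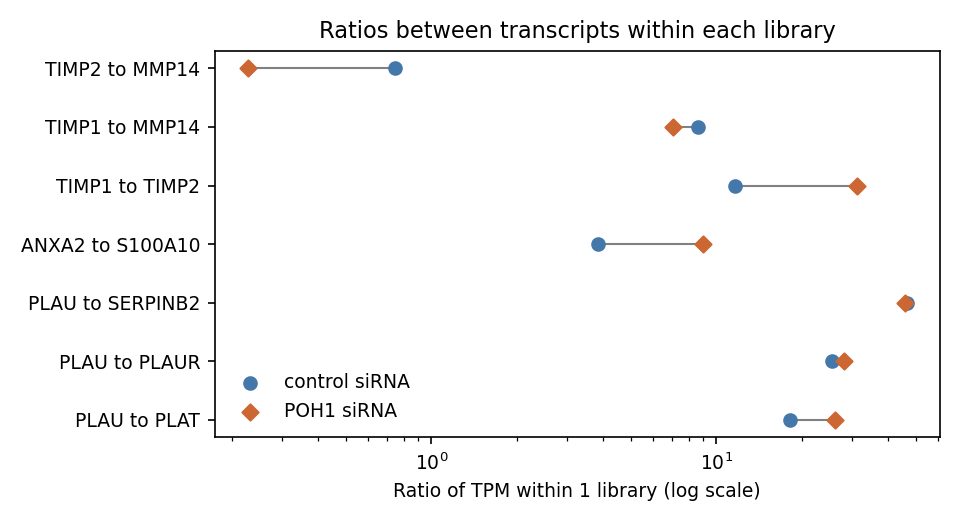
Ratio of the TPM of 2 genes within a library on a log axis, for the control siRNA library (circle) and the POH1 siRNA library (diamond), joined by a line. TIMP2 to MMP14 (0.745 and 0.227), TIMP1 to TIMP2 (11.6 and 31.1) and ANXA2 to S100A10 (3.83 and 8.94) lie far apart, while those for PLAU to its inhibitor SERPINB2 (46.6 and 45.8) nearly coincide. The ratios are not adjusted for GC content.

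Of the 12 measured serine proteases of the membrane and the secretory pathway and their inhibitors, 10 stayed within 1.5-fold, and 1 each was higher and lower (median 0.25). TMPRSS4, a transmembrane serine protease, was at 0.956 and 3.09 TPM, and SERPINB5, which encodes maspin, at 35.5 and 21.8 TPM. TFPI, the inhibitor of tissue factor, was at 7.03 and 4.44 TPM (log2 difference -0.56), and PRSS8, or prostasin, at 105.3 and 143.3 TPM. The elastase inhibitors PI3 (11274 and 12959 TPM) and SLPI (1711 and 2039 TPM) had the highest levels in this list. After adjustment for GC content SERPINB5 was at -0.33 and no longer lower.

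Of 12 measured ADAM and ADAMTS genes, which encode shedding enzymes and matrix proteases, 1 was higher, none was lower and the median was 0.26. ADAMTS6 was the higher one, at 1.55 and 4.35 TPM. The sheddases ADAM15 (331 and 455 TPM), ADAM19 (78.6 and 109.1 TPM) and ADAM8 (105.4 and 130.8 TPM), and ADAMTS1 (5.26 and 7.32 TPM), lay within 1.5-fold. Cathepsins, many of them lysosomal proteases, and their cystatin inhibitors had 16 measured genes with a median of 0.01, none of them higher and 1 lower. The lower one was CTSV, at 15.4 and 9.67 TPM, but after adjustment for GC content it was at -0.49 and within 1.5-fold. CTSC was at 179 and 133 TPM, CTSD at 330.005 and 433 TPM, CTSK at 6.46 and 4.75 TPM, CTSZ at 839 and 903 TPM and CSTB at 749 and 847 TPM.

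Matrix proteins that these enzymes cut had the highest median of the 8 lists, 0.51 over 11 measured genes, with 3 higher and none lower. The share higher was 27.3%, against 10.2% of all genes. The 3 were COL4A5 (10.7 and 18.2 TPM), COL1A1 (30.9 and 47.8 TPM) and HSPG2, or perlecan (26.7 and 40.9 TPM). NID1, or nidogen, was at 4.16 and 6.53 TPM, fibronectin, FN1, at 276 and 296 TPM and tenascin C, TNC, at 125 and 177 TPM. With scaling to a median ratio of 1 none of the 11 was 1.5-fold higher. After adjustment for GC content COL1A1 was at 0.45 and HSPG2 at 0.40, both within 1.5-fold. COL4A5 stayed higher, at 0.84, and COL4A1 of the same list was then also higher, at 0.61. COL1A1 stood without the fibroblast genes COL1A2, COL3A1, DCN and LUM, each listed at under 0.25 TPM in both libraries.

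AP-1 and ETS factors, which are known to act at the promoters of MMP1 and PLAU, had 14 measured genes with a median of 0.37, 2 of them higher and none lower. The share higher, 14.3%, was near the 10.2% of all genes. ETS1 was at 19.1 and 30.6 TPM and FOSL2 at 5.33 and 8.56 TPM. FOSL1, which encodes the AP-1 subunit FRA-1, had the highest level of the list, at 532 and 739 TPM, and JUNB was at 216 and 297 TPM. Of the 2 genes named here as textbook targets, PLAU lay 1.28-fold above the control and MMP1 was under the filter. With scaling to a median ratio of 1 none of the 14 factors was 1.5-fold higher. After adjustment for GC content ETS1 was at 0.996 and still higher, while FOSL2 was at 0.51 and within 1.5-fold.

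**Figure D4:**
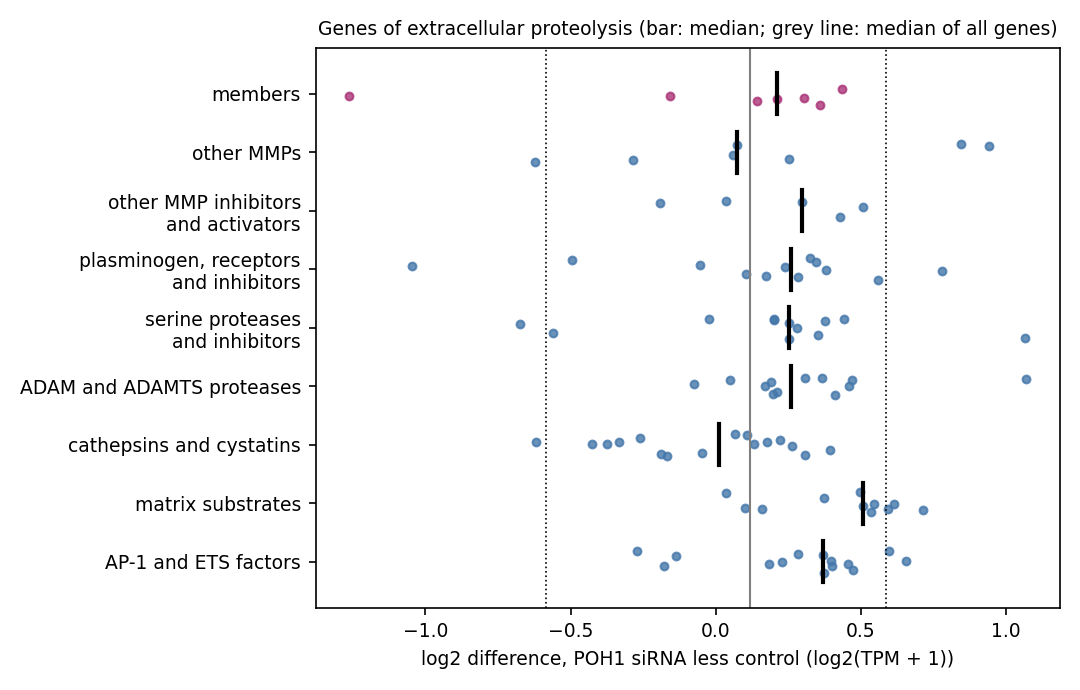
Log2 difference (horizontal axis, log2(TPM + 1), POH1 siRNA less control) of each measured gene, 1 point per gene, for the members (purple) and the 8 pathway lists (blue), with black bars for list medians, a grey line for the median of all genes (0.12) and dotted lines for 1.5-fold. Most points lie between the dotted lines, TIMP2 and S100A10 are the lowest, and the matrix substrates have the highest median (0.51).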

How the data were processed

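The deposited values are TPM per gene, made by the authors, with 1 column per library. The submitters' processing notes name CASAVA, HISAT2 and build hg19, with the annotation, TPM tool, use of strand and depth not given in the sources used here. RNA was isolated with Trizol and made into Illumina mRNA libraries, per the labels' protocols. Symbols were matched by Ensembl identifier (57392 of 58174 genes). GENCODE release 29 (GRCh38) gave GC content, gene overlaps and the printed coding sequences.

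Differences were computed in Python 3.11.15 with numpy 2.4.6 and pandas 2.3.3, without a test, and the scripts were tested on simulated data. The members and lists were chosen with earlier results of these data known. Named genes were the 9 members, PSMD14, a few fixed regulators and, per list, the 4 largest differences and the 2 highest levels; some of these are not reported here. Alternatives were pseudocounts of 0.1 and 5, no filter or 5 TPM, 3 scalings, and subtraction of a running median over 501 genes ordered by GC content. The running median was taken over genes averaging at least 5 TPM, and the median difference of these genes was then added back. GC-adjusted differences are therefore not centred on 0, and calls near 1.5-fold after adjustment depend on this added median.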

Additional observations from a re-analysis of the deposited data

How the results depend on the processing

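TIMP2 was the 1 member counted lower, and no member was counted higher, under all 8 alternatives. The other members kept their sign and stayed within 1.5-fold under the 6 alternatives of pseudocount, scaling and GC content, except MMP1, which was at -0.86 with a pseudocount of 0.1. PLAU is among the 50 most abundant genes, so it has no value where these were left out. TIMP1 came closest to 0, at 0.004 with scaling to a median ratio of 1. Of the pathway genes, 10 were higher and 4 lower. With a pseudocount of 5, which shrinks differences of low genes by construction, 2 were higher and 2 lower. With a pseudocount of 0.1, 11 were higher and 6 lower. NID1 (1.57-fold higher), SERPINF2 (1.55-fold lower) and TFPI (1.58-fold lower) were past 1.5-fold as ratios of TPM, but not with a pseudocount of 1. The count higher was 5 with scaling to a median ratio of 1 and 6 with a trimmed mean of ratios, which lower every difference by construction. The medians of the other metalloproteases (0.07) and of the cathepsins (0.01) lay near 0 and changed sign, to -0.03 and -0.12 with scaling to a median ratio of 1 and to -0.11 and -0.01 after GC adjustment.

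Over all genes, 1535 were higher and 1333 lower (53.5% of those counted were higher), against 636 and 668 with a pseudocount of 5, 960 and 1845 (34.2%) with scaling to a median ratio of 1, 1004 and 1796 (35.9%) with a trimmed mean, and 1886 and 778 (70.8%) after GC adjustment. GC-adjusted differences had a median of 0.15 over all genes, since a median was added back, and the share higher after adjustment depends on it. No paired analysis was possible because each group held 1 library.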

Other observations

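Some genes under the filter had large ratios of TPM and were chosen after their values were seen. KLK10, a kallikrein-related secreted protease, was at 0.0937 TPM with control siRNA and 0.993 TPM with POH1 siRNA. MMP24, a membrane-type metalloprotease, was at 0.299 and 1.11 TPM, and it overlaps exons of MMP24OS on the opposite strand, itself at 95.9 and 110.1 TPM. KLK6, a family member of KLK10 that was far more abundant, was at 142.0 and 139.6 TPM.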
